A study of Mus musculus with 9 samples.

Results

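The genes described here are the immunoglobulin variable and constant segments that gave reads in whole mouse sciatic dorsal root ganglia. They were the rows of the deposited expression table whose symbols start with Ighv, Ighg, Igkv, Igkc, Iglv or Iglc, with Ighm, Ighd and Igha, above 0 FPKM in at least 3 of the 9 libraries. FPKM stands for fragments per kilobase of gene, scaled to library depth. This gave 142 genes of 45904 identifiers: 63 heavy chain variable (Ighv), 68 kappa variable (Igkv) and 3 lambda variable (Iglv) segments and 8 constant regions. The release M21 of the GENCODE annotation lists 360 genes under these names, of which 221 were matched in the table and 182 were above 0 in at least 1 library. Ighd, the constant region of IgD, and the lambda constant regions Iglc1, Iglc3 and Iglc4 were not matched and were not analysed here. At the edge of the rule, 22 genes were above 0 in exactly 3 libraries and 23 others, left out, in exactly 2. Since FPKM in these libraries chose the genes, their numbers above 0 are a description.

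An antibody joins 2 heavy and 2 light chains, and B cells build the gene of each chain by joining 1 variable (V) segment to short joining segments near a constant region. Each B cell clone carries a pair of V segments that other clones can also carry, so segment levels alone do not tell clones apart. The constant region sets the class: Ighm gives IgM, the Ighg genes give IgG, and Igha gives IgA. Plasma cells and plasmablasts, the antibody-secreting descendants of B cells, hold far more antibody RNA per cell than resting B cells do.

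The ganglia hold the cell bodies of sensory neurons, with their glia and resident immune cells. They came from C57BL/6 mice in 3 groups of 3 libraries: young sham (8 to 10 weeks old, sham surgery), aged sham (20 to 22 months old, sham surgery) and aged injury (20 to 22 months old, sciatic nerve injury). There was no young injured group, all ganglia were taken 24 h after surgery, and each library pooled ganglia of 2 mice. The labels name the strain and no other genotype, and they do not name the sex. Summed over 4 Y-linked genes, young pools had 29.1 to 33.1 FPKM and aged sham replicate 1 had 21.8 FPKM, while no other aged pool exceeded 0.0133 FPKM. Sex of the pools therefore cannot be told apart from age in the comparisons of aged with young ganglia, and aged sham replicate 1 also stood apart from every aged injury pool. Without it, the log2 change after injury went from 1.86 to 1.02 for Igkc, from 1.39 to 0.76 for Ighm and from 2.40 to 1.02 for Igha. The depth, from reads recovered out of the FPKM steps, was 11155900 to 16154400 reads per library, and 1 read of a typical V segment was worth 0.172 to 0.25 FPKM, as for Igkv3-2. In bulk tissue, fewer cells of a type and less RNA per cell cannot be told apart.

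The V segments that led their locus by FPKM, alone or tied, in at least 1 aged library carry the differences between pools described below, so their sequences are shown. Each run is the last 150 bases of the annotated V coding exon, 5′ to 3′ on the coding strand, from GENCODE M21 transcripts (build GRCm38, the same as mm10). Capitals mark the end of the segment from its last in-frame cysteine codon, where the third antigen-binding loop begins. The heavy chain segments lie on the minus strand of chromosome 12, at chr12:115158403-115158552 (Ighv1-53), chr12:115802648-115802797 (Ighv1-74), chr12:114788372-114788521 (Ighv1-26), chr12:114288152-114288301 (Ighv3-6) and chr12:114391712-114391861 (Ighv6-3).
Ighv1-53: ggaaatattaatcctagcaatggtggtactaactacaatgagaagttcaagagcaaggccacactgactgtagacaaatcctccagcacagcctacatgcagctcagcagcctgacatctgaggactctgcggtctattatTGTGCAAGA
Ighv1-74: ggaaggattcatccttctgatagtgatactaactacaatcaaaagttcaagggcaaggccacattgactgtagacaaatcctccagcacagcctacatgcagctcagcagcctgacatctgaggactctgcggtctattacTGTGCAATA
Ighv1-26: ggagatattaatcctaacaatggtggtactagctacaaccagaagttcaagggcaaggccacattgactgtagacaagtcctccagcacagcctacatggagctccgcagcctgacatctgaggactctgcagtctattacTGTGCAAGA
Ighv3-6: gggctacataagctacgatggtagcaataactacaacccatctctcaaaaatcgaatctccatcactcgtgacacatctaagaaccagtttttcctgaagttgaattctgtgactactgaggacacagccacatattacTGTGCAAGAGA
Ighv6-3: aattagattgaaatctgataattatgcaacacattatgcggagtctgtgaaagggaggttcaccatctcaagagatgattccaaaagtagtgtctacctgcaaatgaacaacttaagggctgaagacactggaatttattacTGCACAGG
Over the whole V coding exon, Ighv1-53 and Ighv1-74 were 94.1% identical with 18 differences, and Ighv1-53 and Ighv3-6 were 59.0% identical. Their capitals hold 8 to 11 bases, because the rest of the loop comes from D and joining segments.

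The kappa segments lie on chromosome 6, on the plus strand at chr6:70698918-70699067 (Igkv3-2) and on the minus strand at chr6:69900424-69900573 (Igkv5-39) and chr6:69607275-69607424 (Igkv4-55).
Igkv3-2: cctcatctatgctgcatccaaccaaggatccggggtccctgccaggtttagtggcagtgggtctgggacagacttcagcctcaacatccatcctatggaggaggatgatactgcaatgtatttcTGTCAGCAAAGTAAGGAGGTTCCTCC
Igkv5-39: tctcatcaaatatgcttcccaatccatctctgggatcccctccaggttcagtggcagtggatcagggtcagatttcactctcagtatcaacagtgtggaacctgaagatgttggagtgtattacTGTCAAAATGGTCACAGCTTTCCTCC
Igkv4-55: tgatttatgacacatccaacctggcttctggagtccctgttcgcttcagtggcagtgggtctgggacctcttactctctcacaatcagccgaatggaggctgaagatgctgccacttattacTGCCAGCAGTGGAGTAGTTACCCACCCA
These 3 kappa segments were 63.4% to 66.8% identical to each other over the V coding exon, and 26 to 28 of the printed bases are capitals, since a kappa segment encodes most of the third loop. Igkv3-2 and Igkv5-39 had no exact 100-base stretch in common with another annotated V segment. Placement of reads that carry mismatches or run past the V segment was not tested.

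All 8 constant regions were higher in aged injured ganglia than in young sham ganglia without overlap of the libraries, which held for 19.9% of all tested genes. Group means of aged sham ganglia lay between the other groups for all 8. Igkc, the constant region of kappa light chains (chr6:70726435-70726966, plus strand), had 12.2, 9.22 and 10.3 FPKM in young sham replicates 1 to 3. It had 68.5, 528 and 304 FPKM in aged sham and 252, 2150 and 980 FPKM in aged injury. Every aged library was above every young one, while aged sham and aged injury overlapped and replicate 1 was the lowest and replicate 2 the highest of each aged group. Mean levels were 10.6 ± 1.52, 300.3 ± 229.8 and 1127 ± 958 FPKM (SD, n = 3 each), 28.4 times as high in aged as in young sham. On the log2(FPKM + 0.1) scale, Igkc was higher in aged than in young sham by 4.39 (SE 0.83, limma adjusted p = 0.0344) and in aged injury than in young sham by 6.26 (SE 0.83, limma adjusted p = 0.00306). Aged injury exceeded aged sham by 1.86 (SE 0.83), which did not pass (limma adjusted p = 0.256). That difference was 1.02 without aged sham replicate 1, 1.16 without aged injury replicate 2 and 2.71 without aged injury replicate 1.

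**Figure D1:**
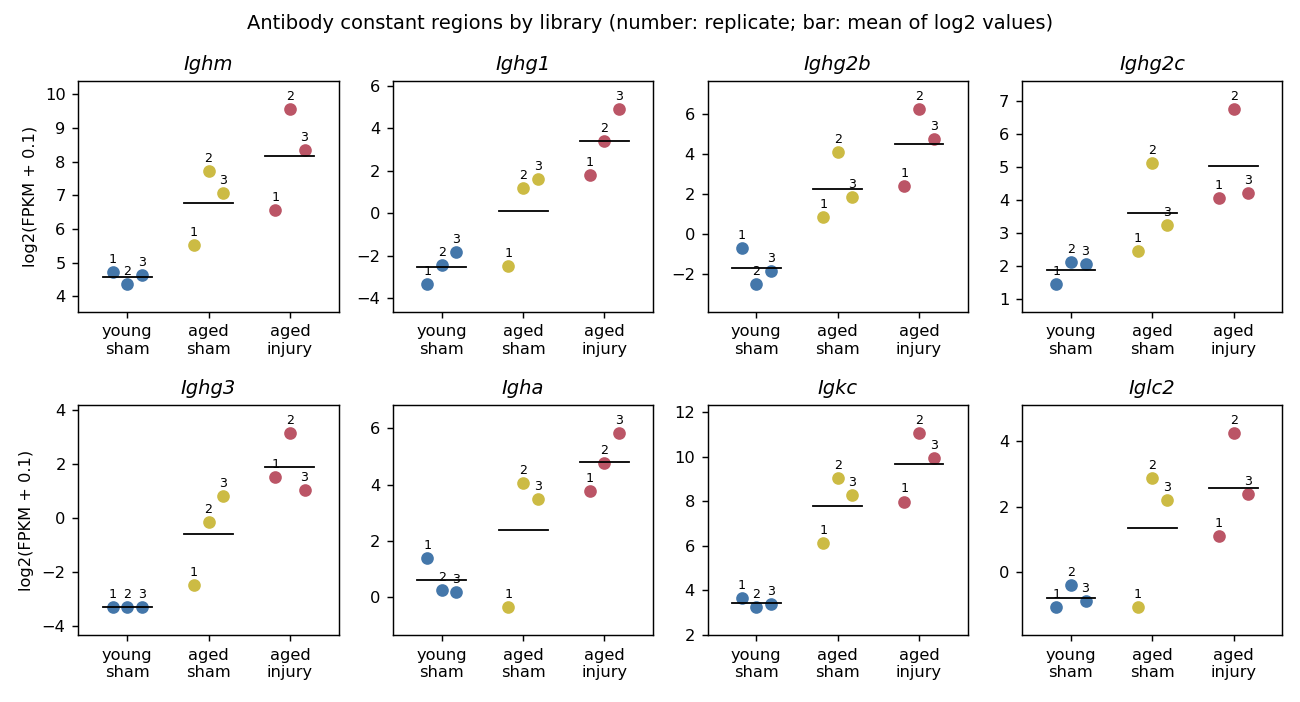
Level of the 8 constant regions in each library, on the log2(FPKM + 0.1) scale; points are libraries with their replicate numbers, and bars are means of the log2 values of the 3 libraries of a group. Igkc runs from 9.22 to 12.2 FPKM in young sham libraries to 2150 FPKM in aged injury replicate 2, and the vertical scale differs between panels.

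Ighm, the constant region of IgM (chr12:113418558-113422730, minus strand), was the most abundant heavy chain constant region in every library. It had 26.1, 20.6 and 25.0 FPKM in young sham, 45.7, 211 and 135 FPKM in aged sham and 95.1, 759 and 329 FPKM in aged injury. The aged libraries were again all above the young ones. The change with age of 2.2 (SE 0.72 on the log2 scale) did not pass (limma adjusted p = 0.101), nor did the change after injury (1.39, limma adjusted p = 0.331), while aged injury against young sham passed (3.59, limma adjusted p = 0.0143). That last adjusted p was 0.0513 without young sham replicate 3 and 0.0534 without aged injury replicate 3. The FPKM ratio of Igkc to Ighm was 0.411 to 0.468 in young sham, 1.5, 2.497 and 2.25 in aged sham and 2.65, 2.83 and 2.98 in aged injury. The ratio thus kept the 3 groups apart without overlap, in contrast to either level.

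The IgG genes differed in how far they were from 0 in young ganglia. Ighg2c, which this strain carries in place of Ighg2a, was measurable in all libraries, with 2.63, 4.18 and 4.07 FPKM in young sham, 5.32, 34.0 and 9.23 FPKM in aged sham and 16.5, 107 and 18.4 FPKM in aged injury. Its young and aged libraries did not overlap, and the aged groups did. It passed the test in aged injury against young sham (3.13 on the log2 scale, SE 0.79, limma adjusted p = 0.0325), though leaving out any of 5 libraries took the adjusted p to between 0.0566 and 0.104: young sham replicate 1, 2 or 3 or aged injury replicate 2 or 3. Ighg2b had 0.526, 0.0797 and 0.177 FPKM in young sham, 1.69, 17.0 and 3.54 FPKM in aged sham and 5.21, 75.2 and 27.0 FPKM in aged injury. It was 6.14 higher in aged injury than in young sham on the log2 scale (SE 1.03, limma adjusted p = 0.00771), and 3.93 higher in aged sham (limma adjusted p = 0.0614).

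Ighg1 and Ighg3 were the constant regions whose aged injury libraries lay above all aged sham libraries. Ighg1 had 0, 1 and 2 reads in young sham (at most 0.184 FPKM), 0.0798, 2.21 and 2.95 FPKM in aged sham and 3.43, 10.6 and 30.1 FPKM in aged injury. Ighg3 had no read in any young library, 0.0783, 0.813 and 1.64 FPKM in aged sham and 2.75, 8.90 and 1.94 FPKM in aged injury. Ighg3 therefore entered the set only through aged libraries. Its mean was 10.3 times a bound of 3 reads over the young group in aged sham and 55.1 times that bound in aged injury. Both passed in aged injury against young sham (limma adjusted p = 0.0105 for Ighg1 and 0.00518 for Ighg3), and neither passed for injury within the aged mice (limma adjusted p = 0.120 for Ighg3, the lowest of the 8).

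Igha, the constant region of IgA (chr12:113254830-113260236, minus strand), had 2.49, 1.09 and 1.04 FPKM in young sham, 0.676, 16.4 and 11.3 FPKM in aged sham and 13.5, 27.4 and 57.5 FPKM in aged injury. Here aged sham replicate 1 fell below all young libraries, and aged injury replicate 3, not 2, was the highest. Igha passed in aged injury against young sham (4.19 on the log2 scale, SE 1.03, limma adjusted p = 0.0302). Its adjusted p rose to between 0.0624 and 0.106 without any 1 of the young sham replicates or aged injury replicates 2 and 3, and for age it was 0.297, or 0.0410 without aged sham replicate 1. Iglc2, a lambda light chain constant region, had 0.375, 0.664 and 0.444 FPKM in young sham, 0.385, 7.25 and 4.49 FPKM in aged sham and 2.04, 19.02 and 5.16 FPKM in aged injury. It was the constant region that missed the threshold in aged injury against young sham (3.36 on the log2 scale, limma adjusted p = 0.0590).

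IgM dominated the heavy chain reads at every age. Ighm made up 86.0%, 82.8% and 85.4% of the reads of the 6 heavy chain constant regions in young sham, 88.3%, 80.1% and 86.7% in aged sham and 75.7%, 81.7% and 77.7% in aged injury. These shares rested on 460 reads (young sham replicate 2, 95% Wilson interval 79.1% to 86.0%, counting error only) to 18925 reads. Read shares are not corrected for length, and Ighm was counted over 1486 bases, Igha over 1034 and Ighg1 over 974. By FPKM, Ighm held 79.2% to 82.2% in young sham, 75.0% to 85.3% in aged sham and 69.7% to 76.8% in aged injury. The aged injury shares lay within or below the range of the other groups, and they overlapped aged sham. The 4 IgG genes together held 8.25% to 14.1% of heavy chain reads in young sham, 8.31% to 15.6% in aged sham and 12.9% to 16.8% in aged injury, again with overlap. By FPKM they held 10.6% to 19.2% in aged sham and 16.7% to 20.5% in aged injury, also with overlap. The make-up within IgG differed between pools: Ighg1 held 4.67% of heavy chain reads in aged injury replicate 3 (interval 4.22% to 5.16%) and 0.75% in aged injury replicate 2. Igha ranged from 0.909% in aged sham replicate 1 to 9.46% in aged injury replicate 3. Ighe, the IgE constant region, is outside the rule and gave 2 reads in aged injury replicate 2, 4 in replicate 3 and 0 elsewhere.

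**Figure D2:**
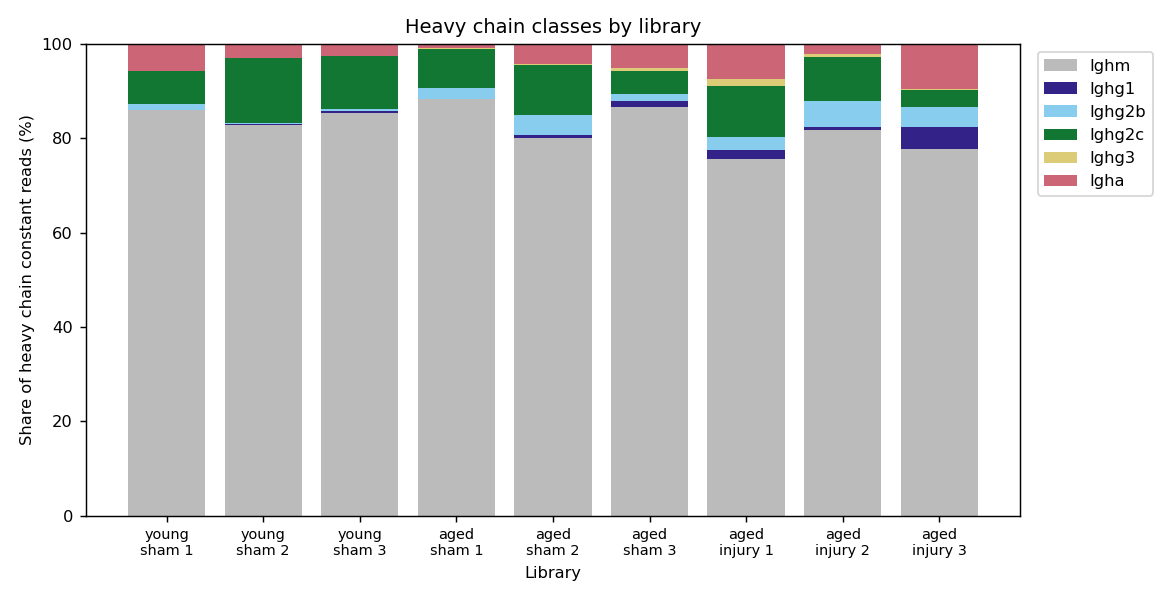
Share of each heavy chain class among the reads of Ighm, Ighg1, Ighg2b, Ighg2c, Ighg3 and Igha, as stacked bars for each of the 9 libraries. Ighm fills 75.7% to 88.3% of every bar, while the Igha and Ighg1 parts are widest in aged injury replicate 3.

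The 134 V segments were sparse in young ganglia and numerous in aged ones. Of them, 38, 23 and 34 were above 0 in young sham replicates 1 to 3, 77, 111 and 78 in aged sham and 102, 131 and 109 in aged injury. The young values rested on 58, 38 and 57 V reads in all, against 183, 1350 and 761 in aged sham and 740, 6828 and 1887 in aged injury. No V segment exceeded 6 reads in a young library, and 66 had no read in any of the 3. A count of segments above 0 moves with the number of reads, and aged injury replicate 2 had the most of both. At a level of 1 FPKM or more, the numbers were 0, 1 and 3 in young sham, 10, 69 and 21 in aged sham and 38, 107 and 61 in aged injury. In aged libraries 38 V segments were above 0 in all 6, and 98 of the 134 had their highest FPKM in aged injury replicate 2.

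The ratio of V to constant region levels varied between libraries. Summed Igkv FPKM was 0.322 to 0.809 of the Igkc FPKM over the 9 libraries. Summed Ighv FPKM was 0.115 to 0.167 of heavy chain constant region FPKM in young sham and 0.191 to 0.365 in the aged pools. The young sums rested on 16, 19 and 19 Ighv reads. Of the 63 Ighv members, 33 had no young read and entered the set only through aged libraries. The gap between the young and aged ratios is therefore a description. Summed over all 142 genes, antibody reads per 1000000 reads numbered 53.6, 43.4 and 52.1 in young sham, 113, 689 and 392 in aged sham and 315, 2585 and 1099 in aged injury. Among the aged pools replicate 1 was the lowest of both groups, so that aged injury replicate 1 stood below aged sham replicates 2 and 3. Joining segments, which the rule leaves out, gave at most 34 reads for kappa and 27 for the heavy chain, both in aged injury replicate 2.

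By FPKM, Igkv3-2 or Igkv5-39 led the kappa segments of 5 of the 6 aged pools. Igkv3-2 had 0.211, 0.448 and 0.499 FPKM in young sham, 0.866, 52.9 and 28.8 FPKM in aged sham and 17.1, 149 and 78.8 FPKM in aged injury. It held 25.2% of summed Igkv FPKM in aged sham replicate 2, 19.5% in aged injury replicate 1 and 25.0% in aged injury replicate 3, and was first there and second by FPKM in aged sham replicate 3 and aged injury replicate 2. In aged sham replicate 1 it held 2.997%. Igkv5-39 had at most 0.312 FPKM in young sham, 1.08, 9.06 and 32.2 FPKM in aged sham and 4.96, 243 and 14.2 FPKM in aged injury. It was first by FPKM in aged sham replicate 3 (25.6%) and aged injury replicate 2 (23.0%), and held between 3.75% and 5.67% in the other aged pools. By reads, aged sham replicate 3 had 133 of Igkv3-2 (24.5% of Igkv reads, 95% Wilson interval 21.1% to 28.3%), 122 of Igkv10-96 and 119 of Igkv5-39 (22.0%, interval 18.7% to 25.6%), so the order of these segments there was not resolved. In aged injury replicate 2, Igkv5-39 was first by reads too, with 957 against 735 of Igkv3-2. Both passed in aged injury against young sham (limma adjusted p = 0.0126 for Igkv3-2 and 0.0153 for Igkv5-39) and missed the threshold for age (0.0778 and 0.0679) and for injury in aged mice (0.378 and 0.540).

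Other kappa segments were high in fewer pools. Igkv4-55 reached 37.4 FPKM in aged sham replicate 2, where it held 17.8% of Igkv FPKM, but had 0.441 FPKM in aged sham replicate 3. It led by FPKM in aged sham replicate 1 with 2.65 FPKM. There it had 12 reads against 11 of Igkv3-4, too few to order them. Igkv10-96 held 21.7% in aged sham replicate 3 and between 0.952% and 4.28% in the other aged pools. Igkv6-15 had 85.6 and 50.4 FPKM in aged injury replicates 2 and 3 and at most 2.07 FPKM in any other library. Igkv4-57 had 35.7 FPKM in aged injury replicate 3 and at most 4.87 FPKM elsewhere. The 3 highest kappa segments held 70.3% of Igkv FPKM in aged sham replicate 3 and 24.2% in aged sham replicate 1, which is the range over aged pools. The effective number of kappa segments, the inverse of the summed squared shares, was 24.8, 9.0 and 6.0 in aged sham and 13.6, 12.04 and 8.7 in aged injury, so that the groups overlapped.

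**Figure D3:**
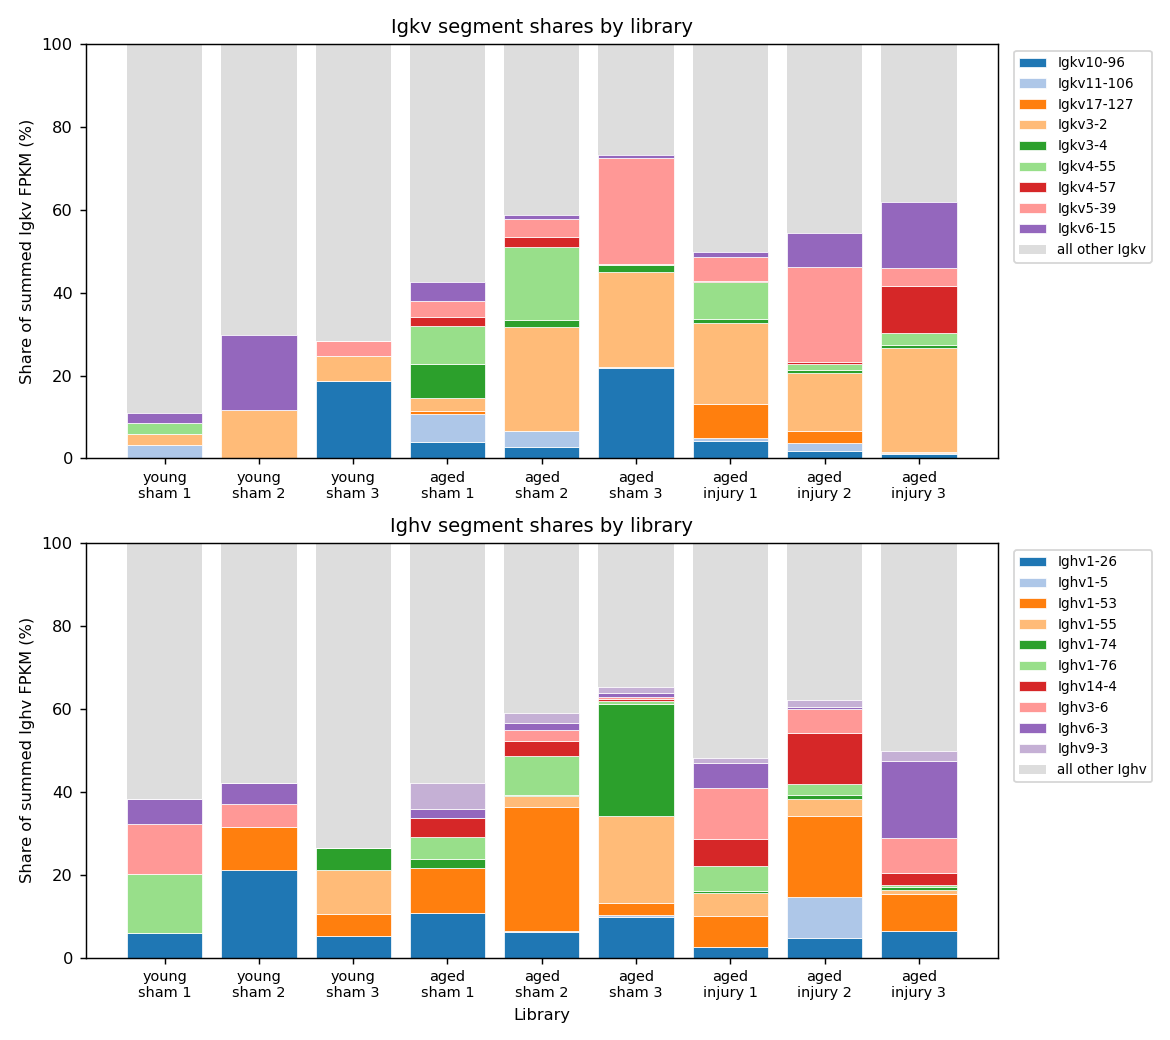
Share of each named V segment in the summed FPKM of its locus, kappa above and heavy chain below, as stacked bars for each of the 9 libraries; grey is the sum of all other segments of the locus. Igkv3-2 is wide in 5 of the 6 aged pools, Igkv5-39 in aged sham replicate 3 and aged injury replicate 2, and Ighv1-53 in aged sham replicate 2 and aged injury replicate 2.

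Heavy chain segments also differed from pool to pool. Ighv1-53 had 0, 0.458 and 0.255 FPKM in young sham, 1.11, 28.9 and 1.33 FPKM in aged sham and 2.998, 70.3 and 9.82 FPKM in aged injury. It led in aged sham replicate 2 (29.9% of Ighv FPKM) and aged injury replicate 2 (19.5%), and held 2.92% in aged sham replicate 3. It passed only in aged injury against young sham among the 3 comparisons (5.58 on the log2 scale, SE 1.40, limma adjusted p = 0.0324). Ighv1-74 led in aged sham replicate 3 with 12.3 FPKM and 27.0%, against at most 3.14 FPKM in any other library. Ighv6-3 led in aged injury replicate 3 with 20.3 FPKM and 18.8%, against at most 2.43 FPKM elsewhere. Ighv3-6 led in aged injury replicate 1 with 5.07 FPKM, and Ighv1-5 had 35.5 FPKM in aged injury replicate 2 and at most 0.305 FPKM in all others. Both Ighv1-26 and Ighv1-53 had 5 reads in aged sham replicate 1, too few to order them. Aged sham replicate 2 and aged injury replicate 2 thus shared their leading heavy segment.

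**Figure D4:**
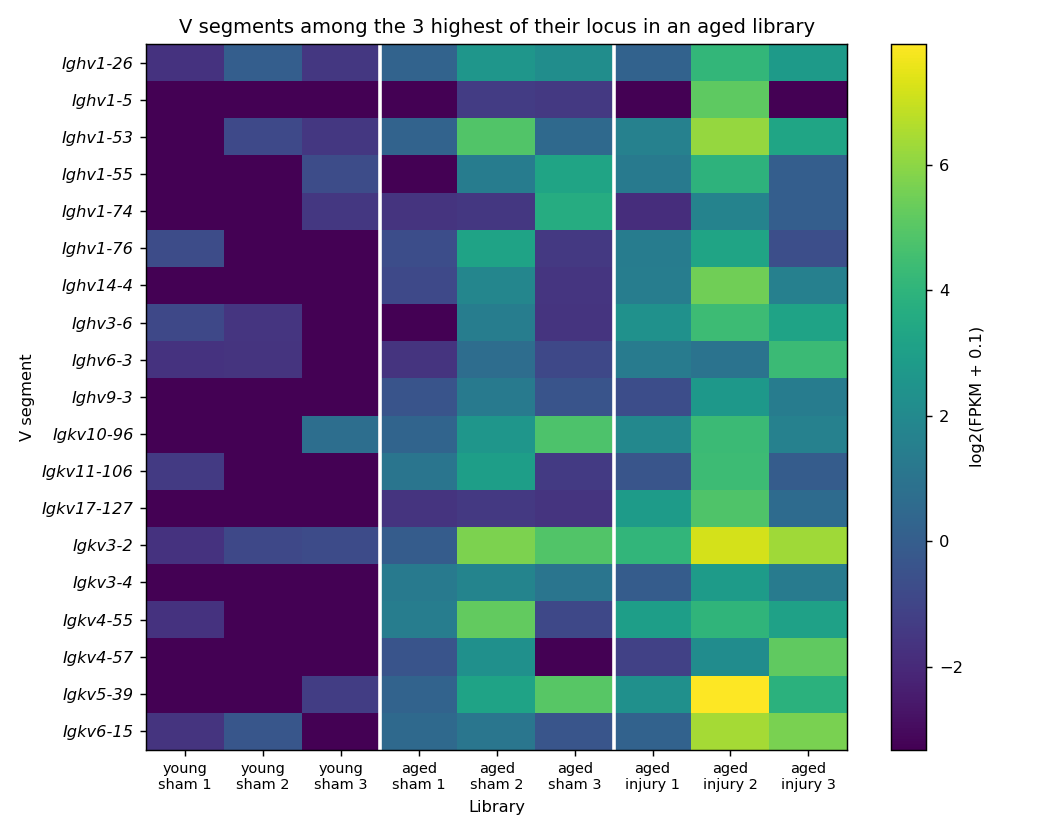
Level on the log2(FPKM + 0.1) scale of the 19 V segments that were among the 3 highest of their locus in an aged library; rows are segments, columns are the 9 libraries, and white lines part the groups. Igkv3-2 is bright in 5 aged pools, whereas Ighv1-74, Ighv6-3, Ighv1-5 and Igkv4-57 each have 1 bright library.

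Grouped into families by the number before the dash, the 63 Ighv segments fell into 12 families and the 68 Igkv segments into 16. Family Ighv1, with 35 members, held the largest share of Ighv FPKM in every library, 47.4% in young sham replicate 3 to 81.6% in aged sham replicate 3. The kappa families changed order: Igkv3 held the most Igkv FPKM in aged sham replicate 2 (29.8%) and in aged injury replicates 1 (23.6%) and 3 (26.9%). Igkv4, with 15 members, was the highest in aged sham replicate 1 (20.2%). By FPKM, Igkv5 was the highest in aged sham replicate 3 (27.1%) and aged injury replicate 2 (24.1%). By reads, Igkv3 came first in both, with 27.3% against 23.4% for Igkv5 in aged sham replicate 3 and 21.3% against 20.9% in aged injury replicate 2.

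Lambda chains were a minority whose share differed between pools. Iglv1, the main lambda V segment, had 0.432, 0.688 and 1.28 FPKM in young sham, 1.33, 40.9 and 1.77 FPKM in aged sham and 3.17, 54.2 and 8.22 FPKM in aged injury. In aged sham replicate 2 the 3 Iglv segments held 17.7% of light chain V reads (95% Wilson interval 15.5% to 20.2%), against 3.04% to 7.97% in the other aged pools. The young shares of 9.52% to 15.8% rested on 3 to 6 lambda reads each and had intervals from 3.77% to 37.6%.

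The age comparison, aged sham against young sham, asked which of these genes differed without nerve injury. Of the 128 members whose mean level reached 0.2 FPKM, 7 were higher (5.47%) and none lower, beside 4.02% of all 17601 tested genes called in either direction and 2.53% called higher. They were Igkc and the V segments Igkv3-4, Igkv1-117, Igkv6-17, Igkv12-46, Ighv1-82 and Ighv9-3. At an unadjusted p under 0.05 there were 34 members, all higher, and voom on recovered reads called 1. Members at 0 in all young libraries could enter the test only through aged ones, so these counts describe and do not support. Their median log2 change was 1.77, or 1.33 with the 57 tested members at 0 in every young library set at their bound against 3 reads, and over all tested genes it was 0.05. In 37 tested members (28.9%) every aged sham library lay above every young one, which held for 17.7% of all tested genes.

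Igkv3-4 was the V segment with the smallest adjusted p for age. It had no read in young sham, 2.38, 3.25 and 1.95 FPKM in aged sham and 0.862, 7.11 and 2.46 FPKM in aged injury. Its aged sham mean was 11.1 times the bound of 3 reads over the young group (limma adjusted p = 0.0115). Its levels were close to each other in the 3 aged sham pools, unlike those of the leading segments, and without young sham replicate 3 or aged sham replicate 2 its adjusted p was 0.0543 or 0.0511. Igkv1-117 had 0.211, 0.224 and 0 FPKM in young sham and 1.95, 2.00 and 4.54 FPKM in aged sham (3.65 on the log2 scale, SE 0.67, limma adjusted p = 0.0331). The other 4 V segments had no young read, and between 1 and 10 reads in each aged sham library. The call of Igkc for age was kept in 4 of 9 fits that each left out 1 library. Its adjusted p was 0.106 and 0.126 without young sham replicate 1 or 3, 0.0781 and 0.0993 without aged sham replicate 2 or 3, and 0.0512 without aged injury replicate 3. Without either of young sham replicate 3 or aged sham replicate 2, 0 members were called for age. There was 1 without young sham replicate 1, aged sham replicate 3 or aged injury replicate 3, 4 without young sham replicate 2 or aged injury replicate 1, and 10 without aged sham replicate 1.

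The injury comparison, aged injury against aged sham, asked what the nerve lesion changed in aged mice at 24 h. It shares the aged sham libraries with the age comparison. Of the 128 members, 4 were higher (3.12%) and 0 lower, beside 4.11% of all tested genes called in either direction and 2.45% called higher, a share near the background. Their median log2 change was 1.53, against -0.01 over all tested genes, and 30 members had an unadjusted p under 0.05. In 16 members (12.5%) every injury library lay above every aged sham library, beside 11.7% of all tested genes. None of the 8 constant regions was called by limma or by voom on recovered reads, and 3 had an unadjusted p under 0.05. The 4 called were the V segments Igkv17-127, Ighv1-18, Ighv1-52 and Ighv5-17, and 0 members were called without aged sham replicate 1 or 3, 1 without aged injury replicate 2 or 3, and 2 without any 1 of the young sham libraries.

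Igkv17-127 had 1 read in each aged sham library (0.228 to 0.263 FPKM) and 7.08, 28.2 and 1.41 FPKM in aged injury, from 39, 132 and 6 reads. It was 4.31 higher on the log2 scale (SE 0.83, limma adjusted p = 0.0246), with 0.0581 to 0.0921 without any 1 of the 3 aged sham replicates or aged injury replicate 1. Its nearest copy, Igkv17-121, shared 98.0% of the V coding exon, and 83.1% of its 100-base windows were unique among annotated V segments. Ighv1-18 and Ighv1-52 had no read in aged sham. Ighv1-18 had no young read either, so it entered the set only through the injury libraries and its call is a description. In aged injury, Ighv1-18 had 0.202, 2.38 and 0.786 FPKM and Ighv1-52 had 0.356, 3.56 and 2.07 FPKM. Their means were 4.23 and 8.55 times the bound of 3 reads over the aged sham group (limma adjusted p = 0.0464 and 0.0408). Replicate 1 of Ighv1-18 lay below its bound of 0.266 FPKM. Ighv5-17 had 0 to 1 read in aged sham and 7, 12 and 5 reads in aged injury (2.85 on the log2 scale, limma adjusted p = 0.0425).

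Aged injury against young sham, which joins age and injury and shares libraries with both other comparisons, gave the most calls. Of the 128 members, 51 were higher (39.8%) and 0 lower, beside 13.1% of all tested genes in either direction and 8.2% higher. They were 17 Ighv, 26 Igkv and 1 Iglv segment and 7 of the 8 constant regions. With voom on recovered reads 22 members were called, 3 of them constant regions, and with a pseudocount of 1 there were 29. Of the 44 called V segments, 23 had no read in young ganglia. The 57 tested members at 0 in all young libraries could enter the set only through aged ones. The counts of calls and of members without overlap given here therefore describe and do not support. The 128 members had a median change of 3.17, or 3.09 with members at 0 set at their bound, against 0.02 over all tested genes, and in 76 of them (59.4%) all injury libraries lay above all young ones, beside 19.9% of all tested genes. Leaving out 1 library gave 23 to 56 calls, with under 35 without young sham replicate 1 (26), 2 (33) or 3 (23) or aged injury replicate 2 (27) or 3 (30).

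Igkv6-20 had no read in young sham, 0.895, 6.72 and 0.671 FPKM in aged sham and 6.42, 78.2 and 9.70 FPKM in aged injury. Its mean in aged injury, raised by replicate 2, was 134 times the bound of 3 reads over the young group (limma adjusted p = 0.00304). Only 44.2% of its 100-base windows were unique, and its nearest copy, Igkv6-29, differed at 5 positions of the V coding exon, so its level is uncertain. The smallest adjusted p belonged to Igkv6-17, with no young read and 2.85, 5.05 and 4.62 FPKM in aged injury (limma adjusted p = 0.0016). Ighv14-4 had no young read and 2.603, 44.5 and 2.89 FPKM in aged injury, and Igkv4-55 had 7.74, 16.4 and 8.65 FPKM. The spread between injured pools was thus narrow for Igkv6-17 and wide for Ighv14-4, both of which were called.

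Near-identical copies limit what single V segments can show. The median identity of a V coding exon to its nearest annotated copy was 95.4% for Ighv and 94.8% for Igkv, and 14 Ighv and 10 Igkv members had a copy at 97% or more. All 100-base windows were unique in 43 of 63 Ighv and 36 of 68 Igkv members. Of the V members, 133 were annotated as V genes and 1, Igkv11-106, as a pseudogene, among 203 and 8 in the table. Igkv11-106 had 7.79 FPKM in aged sham replicate 2 and 20.6 FPKM in aged injury replicate 2. The V members span chr12:113588267-116000461 (Ighv), chr6:67555497-70704177 (Igkv) and chr16:19085017-19260859 (Iglv).

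Genes of antibody-secreting cells and of B cells stood beside the antibody genes in different ways. Jchain, which links IgM and IgA chains into polymers, had 0.502, 0.399 and 0.691 FPKM in young sham, 2.01, 18.8 and 8.56 FPKM in aged sham and 10.2, 72.7 and 32.8 FPKM in aged injury. It was higher in aged injury than in young sham by 5.55 (SE 0.83, limma adjusted p = 0.00477) and missed the threshold for age (3.50, limma adjusted p = 0.0506). Outside the antibody genes, its log2 pattern over the 9 libraries was the most like that of Igkc among all tested genes (Pearson r = 0.994). It was followed by Flna (0.987), Trbv13-1 (0.982), H2-Q2 (0.981) and Imp4 (0.981), and these points share group and library. Of 13 tested genes of plasma cells and plasmablasts, 0 passed for age, 0 for injury (voom called 0 and 3, and 4 had an unadjusted p under 0.05 in each) and 5 were higher in aged injury than in young sham: Jchain, Xbp1, Sdc1, Derl3 and Cd38. Xbp1, a factor needed for secretion, had 22.0 ± 1.92 FPKM in young sham and 34.9 ± 2.40 FPKM in aged injury (SD, n = 3 each), and like Sdc1 it is not specific to these cells.

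Of 15 B cell genes, 0 passed in any of the 3 comparisons with limma or voom, while 4 for age, 0 for injury and 10 for aged injury against young sham had an unadjusted p under 0.05, all higher. Their summed level was 4.53 to 7.31 FPKM in young sham, 8.95, 62.5 and 18.9 FPKM in aged sham and 9.87, 96.96 and 26.9 FPKM in aged injury. Ms4a1, which encodes the surface protein CD20, had 0.406 to 0.610 FPKM in young sham and 0.642, 6.93 and 1.47 FPKM in aged sham. In aged injury it had 0.873, 13.6 and 2.73 FPKM. In aged injury replicate 1, Igkc was at 252 FPKM with a B cell sum of 9.87 FPKM, and in aged sham replicate 2 at 528 FPKM with 62.5 FPKM. T cell genes were also highest in replicate 2 of both aged groups, with sums of 52.8 and 67.8 FPKM against 5.68 to 18.2 FPKM in the other aged pools and 2.13 to 3.74 FPKM in young sham. Of 12 T cell genes, limma called Trbc1 and Trbc2 for aged injury against young sham and 0 in the other comparisons, and voom called 0 in all 3. At an unadjusted p under 0.05, 7 were higher with age, 0 after injury and 10 in aged injury against young sham. The part of B cell and T cell content in the antibody levels was not tested.

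**Figure D5:**
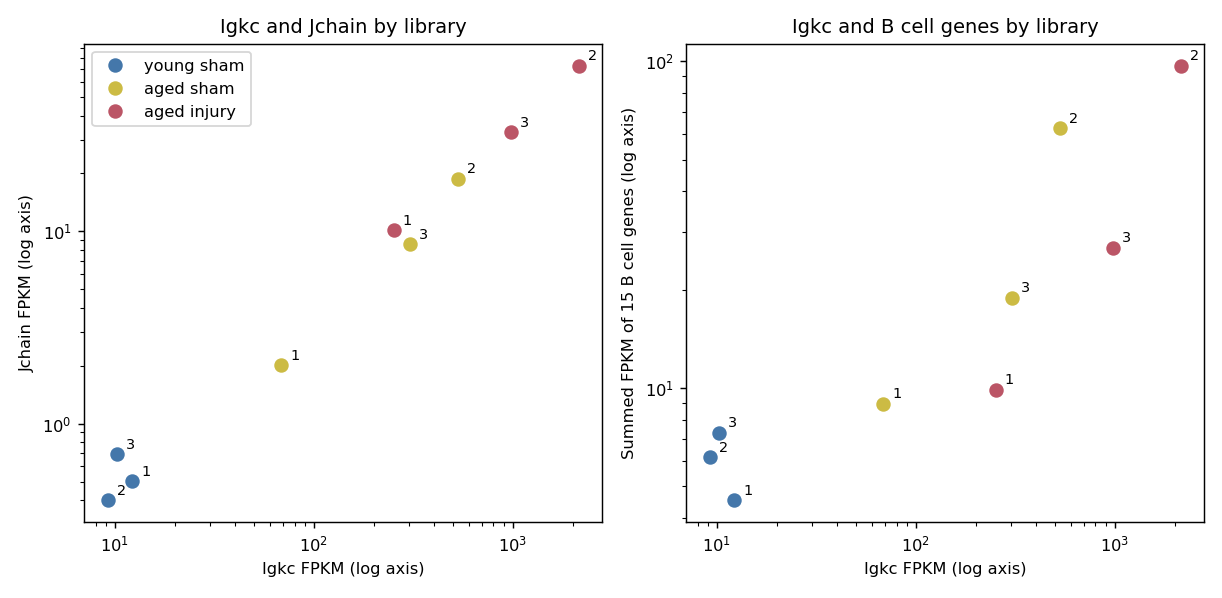
Igkc FPKM of each library against Jchain FPKM (left) and the summed FPKM of 15 B cell genes (right), on log axes; points are libraries with their replicate numbers, coloured by group. Jchain follows Igkc over all 9 libraries, while aged injury replicate 1 has a B cell sum of 9.87 FPKM at 252 FPKM of Igkc.

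Blood and marrow markers were measured in the same libraries. Of 10 genes of bone marrow and neutrophils, 8 were higher with age (median log2 change 1.39) and 3 lower after injury (Camp, Ngp and Ltf; median -1.02). Voom called 9 higher with age and 6 lower after injury, against 10 and 8 at an unadjusted p under 0.05. Their sum was 150 to 242 FPKM in young sham, 348 to 629 FPKM in aged sham and 189 to 325 FPKM in aged injury. None of 7 red blood cell genes passed with limma (median log2 change 0.67 with age and -0.90 after injury), while voom called 1 higher with age and 1 lower after injury, against 3 and 2 at an unadjusted p under 0.05. Genes of early B cell development were near 0: the sum of 7, which include Rag1 and Vpreb1, was at most 1.60 FPKM, and Rag2 and Vpreb2 had no read. Ganglion neuron genes, which mark the labelled tissue, summed to 3159 to 3909 FPKM in every library.

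Receptors that bind antibodies were measured in the same libraries. Of 9 tested genes of antibody receptors and carriers, 2 were higher with age, 0 passed for injury in aged mice (voom called 1, and 2 were higher and 1 lower at an unadjusted p under 0.05) and 5 were higher in aged injury than in young sham. Fcgr2b, the inhibitory receptor for IgG, was at 1.23 ± 0.126, 2.496 ± 0.354 and 3.97 ± 0.741 FPKM in young sham, aged sham and aged injury (SD, n = 3 each; limma adjusted p = 0.0273 for age). Fcer1g, the shared signalling chain of these receptors, had 6.04 ± 1.20, 12.4 ± 1.56 and 11.9 ± 2.16 FPKM. Fcgr1, Fcgr3 and Fcgr4, which activate phagocytes, were called only in aged injury against young sham. Cxcl13, a chemokine that draws B cells, had at most 0.129 FPKM in young sham, 0.265, 11.4 and 3.71 FPKM in aged sham and 1.43, 17.7 and 6.09 FPKM in aged injury. It passed in aged injury against young sham (5.39 on the log2 scale, SE 1.21, limma adjusted p = 0.0224). Of 9 tested lymphoid chemokines and survival factors, Il6 was the only other gene called there. In aged injury against aged sham, Il6 was the only gene of this list called by limma, and it was higher.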

How the data were processed

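Ganglion RNA with an integrity number above 7.5 was made into TruSeq mRNA libraries and sequenced from both ends for 100 cycles, per the labels' protocols. The authors deposited FPKM values per identifier. Build mm10 and these tools are listed in the submitters' processing notes: FastQC 0.10.1, TopHat2 2.0.12 and Bowtie2 2.2.3, HTSeq 0.6.0 and SAMtools 0.1.19, and R 3.1.1, limma 3.22.7 and edgeR 3.8.6. Their annotation release and strand setting were not given in the sources used here, so reads of overlapping or antisense genes may be mixed. Symbols came from GENCODE M21. All 9 columns were matched by name, and 0 were left out.

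For the tests, log2(FPKM + 0.1) of the 17601 genes (128 of the 142 members) whose mean reached 0.2 FPKM entered 1 limma fit of all 9 libraries (limma 3.58.1, R 4.3.3, variance trended on level). This scale understates changes of low genes. Tests were two-sided, adjusted by Benjamini-Hochberg over all genes tested and called at an adjusted p under 0.05, with the code tested on simulated data. The p-values measure the spread between pools of mice. That holds less well where a group sat at the floor. Young sham showed no spread for the 57 tested members at 0 there. Igkv17-127, with 1 read in each aged sham library, had an SD of 0.020 FPKM in that group. Reads per gene were recovered from the FPKM steps: in 25270 of 25276 identifiers above 0 (99.98%), and in all 142 members, 1 gene length of at most 30000 bases made every value whole within 0.001 read. Shares in reads carry 95% Wilson intervals, which cover counting error only, and a count of 0 was given the bound of 3 reads over the group. Folds against that bound use the mean of the higher group and do not cover the spread between pools. V coding exons were compared with edlib 1.3.9.post1.

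The naming rule covered all constant regions, the 3 highest V segments per library and locus, called members, the leading or called genes of each marker list and the 5 genes most like Igkc; only some of these are named in the text. Igkv6-29, Igkv17-121 and Ighe were named after their values or sequences were seen. Members and lists were chosen with earlier results of these data known. Promoter and recombination signals were not analysed here.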

Additional observations from a re-analysis of the deposited data

How the results depend on the processing

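Of the 7 members called for age, the count became 1 with a pseudocount of 1, 1 without a filter on low values, 14 with library weights, 1 with voom on recovered reads and 2 with only the compared groups in the fit. It was 8 after median or quantile scaling and 9 with a filter at 1 FPKM. The 4 calls for injury became 2 with a filter at 1 FPKM and 0 with only the compared groups, and lay between 3 and 5 under pseudocount, scaling, weights, voom or no filter. The 51 calls of aged injury against young sham became 29 with a pseudocount of 1 and 22 with voom, and lay between 41 and 63 otherwise. Leaving out each library gave 0 to 10, 0 to 6 and 23 to 56 calls. No log2 change of a constant region, or of a member called in the same comparison, reversed under any of these settings. Other members were not checked for a reversal, and the cause of lost calls was not tested. In aged injury against young sham, 9 members kept their call in all 18 alternative fits, among them Igkc, Ighg3, Igkv12-46 and Igkv6-17.

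The replicate number as a block gave 3 calls for age, 4 for injury and 57 for aged injury against young sham. Deviations from group means correlated at 0.25, 0.27 and 0.06 between same-numbered aged sham and aged injury libraries. Differently numbered aged sham and aged injury libraries gave -0.26 to 0.04. Same-numbered young and aged libraries were all below 0. Whether the numbers pair the aged samples was not tested.

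Young V segments rest on 38 to 58 reads per library, which limits what these libraries can show of segment use in young ganglia.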
